A study of Mus musculus with 5 samples.

Results

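The genes described here are named for proteins of the mitochondrial ribosome. They were chosen as every gene in the deposited tables whose symbol starts with Mrpl or Mrps followed by a digit. A symbol alone does not show that the product is part of the ribosome. There were 77 such genes among 31626 genes, 48 named for the large subunit (Mrpl, including the pseudogene Mrpl48-ps) and 29 for the small subunit (Mrps). Their RNA was measured in 5 libraries made from common myeloid progenitors of the mouse, the cells from which granulocytes, monocytes, platelets and red cells descend. The knockout group (n = 2) was Mll1 flox/flox cells given Cre recombinase, labelled MLL1 -/-, and the control group (n = 3) was Mll1 flox/flox cells given a control vector. Cells of both groups were of the C57Bl/6 strain, had been transformed with a retrovirus expressing MN1 and GFP (MSCV-MN1-IRES-GFP), were grown in M3234 medium with FBS, IL3, IL6 and SCF, and were sorted at day 7. Mll1 encodes a histone H3 lysine methyltransferase, and MN1 is a cofactor of transcription with leukaemia-causing activity in such cells. Wild type cells given Cre were not analysed here, and Cre exposure and Mll1 loss therefore cannot be told apart. Whether replicates are separate mice or cultures is not stated in the labels, and p-values therefore reflect only how these libraries vary, which may be technical.

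Mitochondrial ribosomes translate the few respiratory chain proteins that the mitochondrial genome encodes. Their RNA comes from that genome, while all of their proteins are encoded in the nucleus, made in the cytosol and imported. Some of the proteins have homologues in the bacterial ribosome, and the others are specific to mitochondria. The large subunit joins amino acids and releases the chain through an exit tunnel at the inner membrane. The small subunit binds the mRNA and reads its codons.

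All levels are FPKM, that is fragments divided by transcript length and by a measure of library size, so different genes are compared per length. Which measure of library size was used is not known here. Mll1 itself stood at 6.22 and 5.32 FPKM in knockout libraries and at 9.67, 7.28 and 7.19 FPKM in control libraries, a log2 change of -0.41. Both knockout values lay below all controls, as they did in 29.4% of all genes tested. The p was 0.1 in a two-sided exact permutation test, the smallest value possible with 10 splits. In the limma test used below for all genes, the adjusted p of Mll1 was 0.158, so Mll1 did not pass. Which exons are floxed is not in the labels, so a whole-gene level may miss the deletion. Absolute depth is unknown, because the tables hold no counts. Among genes low in both libraries, the commonest ratio of FPKM to that in control replicate 1 was 0.98 to 1.02 in the other libraries. It was sought only in a narrow range around 1, so a larger difference in FPKM per read could not have shown. Control replicate 1 had 11672 genes at 0 FPKM, and the other libraries had 12695 to 13061.

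Control replicate 1 stood apart from the other controls. The listed markers of mature neutrophils, of which 13 of 14 were in the tables, summed to 22427 and 20692 FPKM in knockout libraries and to 6413, 793 and 1054 FPKM in control libraries. In 9 of the 13, control replicate 1 was the highest control. None was at 0 in all libraries, 1 stayed below 0.5 FPKM throughout, and in 5 both knockout values were above every control. S100a8, a calcium-binding protein of neutrophils, led the sum with 11794 and 10986 FPKM in knockout libraries and 3129, 347 and 485 FPKM in controls. S100a9 followed with 10186 and 9270.5 FPKM in knockout libraries and 2936, 291 and 407 FPKM in controls. S100a8 and S100a9 together carried most of the sum in every library. Mmp8 ran otherwise, at 52.5 and 54.4 FPKM in knockout libraries and 38.7, 65.0 and 64.3 FPKM in controls. Mmp9, Ly6g and Padi4 stayed at or below 1.09 FPKM. In control replicate 1 the granule protein genes Ngp (106 FPKM, against 64.7 and 58.3 in knockouts) and Camp (42.9 FPKM, against 33.3 and 32.4) were above the knockouts too. The 7 progenitor markers in the tables summed to 2982 and 3097 FPKM in knockout libraries and 2448, 1643 and 1697 FPKM in controls. Mpo, myeloperoxidase, carried most of that sum, at 2385 and 2509 FPKM in knockout libraries and 1303, 694 and 775 FPKM in controls, and Gata2 and Csf2rb were also above every control in both knockouts. Kit, the SCF receptor, stood at 61.0 and 57.1 FPKM in knockout libraries and 112, 75.4 and 64.6 FPKM in controls, and Cd34 at 216 and 212 FPKM in knockout libraries and 685, 600.3 and 587 FPKM in controls. Lymphoid markers summed to 6.6 and 5.47 FPKM in knockout libraries and 55.7, 55.4 and 40.4 FPKM in controls, with Cd3g and Pax5 at 0 in all. Most of that sum was Thy1, at 4.82 and 3.78 FPKM in knockout libraries and 51.7, 49.2 and 35.0 FPKM in controls. Control replicate 1 differed in other marker lists too. It was the highest control in 8 of 10 erythroid, 6 of 9 monocyte and macrophage and 5 of 7 progenitor markers. In the megakaryocyte, stroma and endothelium, mast cell and basophil, and lymphoid lists it was so in 4 of 8, 3 of 6, 3 of 7 and 2 of 11. In bulk samples, fewer cells of a type and less RNA per cell cannot be told apart.

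Most mitochondrial ribosomal protein genes were expressed above the median gene. The median level, as the mean over the 5 libraries, was 62.1 FPKM for the tested large subunit genes and 59.8 FPKM for the small subunit genes, against 14.3 FPKM over all 11780 genes tested. A gene was tested when it reached 1 FPKM in at least 2 libraries, which 75 members did (46 large, 29 small). Mrpl23, which encodes a protein of the exit tunnel region, was below that level with 0.764 and 0.459 FPKM in knockout libraries and 0.624, 0.387 and 0.317 FPKM in control libraries. The pseudogene Mrpl48-ps stayed below 0.4 FPKM in every library and was listed at 0 in control replicate 1.

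The highest large subunit levels were those of Mrpl12, Mrpl20 and Mrpl33. Mrpl12, the stalk protein that contacts translation factors, stood at 249 and 250.4 FPKM in knockout libraries and 156, 224 and 221 FPKM in control libraries. Mrpl20 stood at 215 and 227 FPKM in knockout libraries and 175, 198 and 224 FPKM in control libraries, so the groups overlapped. Mrpl1, Mrpl35 and Mrpl48 were the lowest tested large subunit genes, between 9.67 and 29.0 FPKM in any library. In the small subunit Mrps18c, Mrps14 and Mrps16 stood highest, between 83.2 and 123 FPKM, and the levels of these 3 overlapped one another across libraries. Mrps33, at 1.57 and 1.21 FPKM in knockout libraries and 1.72, 1.45 and 2.09 FPKM in control libraries, and Mrps36, at 1.22 and 0.849 FPKM in knockout libraries and 0.546, 0.927 and 1.04 FPKM in control libraries, stood lowest, below Mrps31 at 16.9 to 20.3 FPKM. Mrps33 and Mrps36 have near-identical copies elsewhere in the genome, Gm5776 for Mrps33 and Gm16149, Gm3544 and annotated pseudogenes for Mrps36, so reads may have been split and these levels are uncertain.

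No mitochondrial ribosomal protein gene passed the test between knockout and control libraries. With limma on log2(FPKM + 1) and Benjamini-Hochberg adjustment over all genes tested, 0 of 75 members had an adjusted p under 0.05, against 9.79% of all genes (3.82% higher and 5.97% lower in knockout libraries). At an unadjusted p under 0.05 in limma, 5 members were higher (Mrpl17, Mrpl41, Mrpl49, Mrpl51 and Mrps7) and 2 lower (Mrpl24 and Mrpl33), against 12.5% and 17.3% of all genes. The 95% intervals of the log2 change lay within 1 of 0 for all 75 members, between -0.81 and 0.85, and within 0.5 of 0 for 32. Their median width was 0.8, so small changes were not detectable for most members. Mrpl44, which encodes a large subunit protein related to RNase III, had a narrower interval: it stood at 45.8 and 46.2 FPKM in knockout libraries and 44.1, 45.0 and 45.4 FPKM in control libraries, with a log2 change of 0.038 (-0.13 to 0.20).

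The members differed less between the groups than control replicate 1 differed from the other controls. Their summed level was 5352 and 5476 FPKM in knockout libraries and 4244, 5509 and 5491 FPKM in control libraries. The means were 5414 ± 87.7 FPKM (SD, n = 2) in knockouts and 5081 ± 725 FPKM (SD, n = 3) in controls, and the sum in control replicate 1 was 22.8% below the mean of the other controls. As a share of the summed FPKM of a library, the members held 0.867% and 0.852% in knockouts and 0.732%, 0.895% and 0.86% in controls. Control replicate 1 was the lowest of the 5 libraries in 70 of 75 members (93.3%), against 32.6% of all genes tested. The exceptions were Mrpl24, Mrpl33, Mrpl49, Mrps31 and Mrps33. Set against the mean of control replicates 2 and 3, the median member lay at log2 differences of -0.0073 and 0.036 in knockout libraries and -0.39 in control replicate 1, while the median of all genes lay at -0.054, -0.052 and -0.064. The part of the neutrophil or other cell type markers in this difference was not tested.

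**Figure D1:**
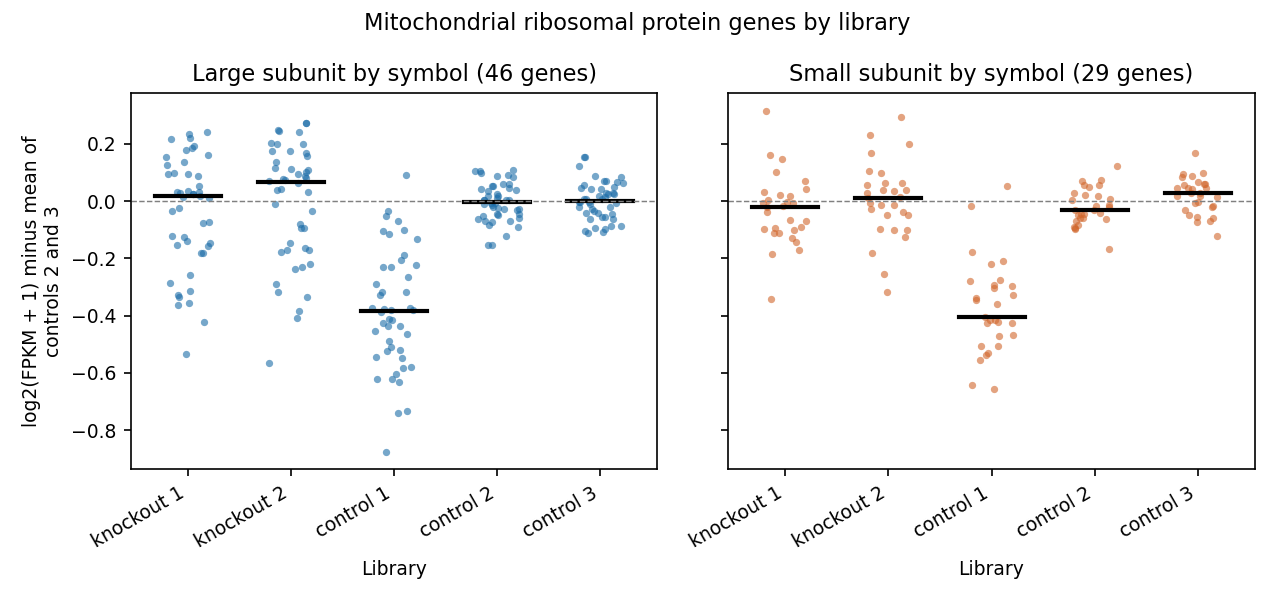
Level of each tested mitochondrial ribosomal protein gene in each library, as the log2 difference from the mean of control replicates 2 and 3, with large and small subunit genes apart, a point for each gene and a bar for the median. The points of control replicate 1 sit lowest, with a median over both subunits of -0.39, and the knockout medians lie at -0.0073 and 0.036.

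The median log2 change, knockout minus control, was 0.15 over the large subunit genes and 0.092 over the small subunit genes, against -0.028 over all genes tested. Of the 75 members, 59 had a positive and 16 a negative change, with a range of -0.44 to 0.40. The large subunit median exceeded that of the small subunit by 0.057, and no test was made across members. Without control replicate 1 the medians were 0.041 and -0.016, against -0.05 over all genes, and 40 members were positive and 35 negative. Both knockout values were above every control in 20 members (17 large and 3 small), and both were below in 2. The shares of all genes tested were 22.9% and 29.4% (52.4% in either direction). These counts depend on control replicate 1, the lowest library in 70 of the 75 members against 32.6% of all genes. In those 70 the knockouts could not lie below every control, and had only control replicates 2 and 3 left to exceed. Reads of 39 members could have been shared with another gene, through exons that overlap on the opposite strand (27) or the same strand (7) or a near-identical copy (14), and their levels are uncertain. These 39 had a median change of 0.19 and held 15 of the 20, and the 36 other tested members had a median change of 0.087. Without control replicate 1 these medians were 0.028 and -0.035. The 36 include Mrpl33, which was not found in the annotation used, so no overlap or copy could be sought for it. Besides those said to be uncertain beside their values, other members named here are uncertain. Those named for the large subunit are Mrpl3, Mrpl10, Mrpl12, Mrpl13, Mrpl18, Mrpl21, Mrpl22, Mrpl41, Mrpl43, Mrpl44, Mrpl48 and Mrpl49. Those named for the small subunit are Mrps5, Mrps16, Mrps18b, Mrps18c, Mrps24, Mrps27 and Mrps30. Members with a bacterial homologue (45 tested) had a median change of 0.11 and a median level of 75.1 FPKM, and mitochondria-specific members (30 tested) had a median change of 0.15 and a median level of 52.9 FPKM. Without control replicate 1 the median changes were -0.019 for the members with a bacterial homologue and 0.036 for the mitochondria-specific ones.

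**Figure D2:**
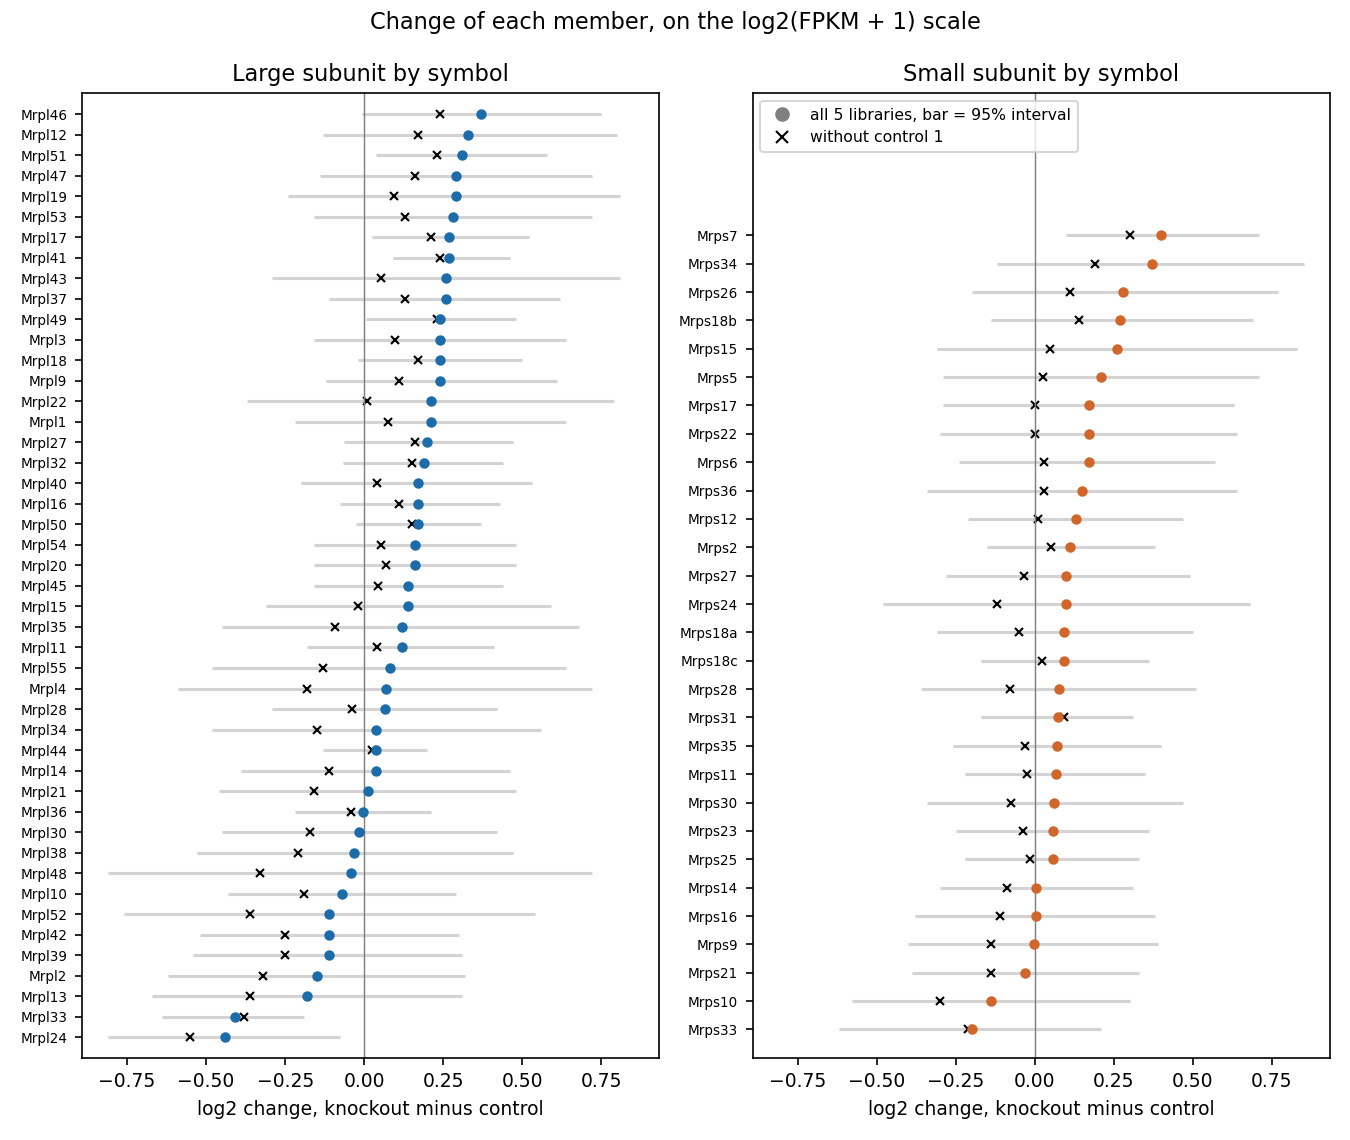
Log2 change, knockout minus control, with its 95% interval for each tested member, large and small subunit genes apart, and a cross for the change without control replicate 1. All intervals lie between -0.81 and 0.85, and changes run from -0.44 (Mrpl24) to 0.40 (Mrps7).

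The members of the stalk, where translation factors bind, were Mrpl10, Mrpl11 and Mrpl12. Mrpl12 averaged 249.7 ± 1.04 FPKM (SD, n = 2) in knockouts and 200.3 ± 38.0 FPKM (SD, n = 3) in controls, and its log2 change was 0.33 (SE 0.18, limma adjusted p = 0.281). Its partner in the stalk base, Mrpl10, stood at 55.6 and 52.8 FPKM in knockout libraries and 47.7, 63.3 and 61.0 FPKM in control libraries, with overlapping groups. Mrpl11 stood at 95.4 and 106 FPKM in knockout libraries and 83.2, 93.5 and 102 FPKM in control libraries, also overlapping. The log2 changes were -0.069 for Mrpl10 and 0.12 for Mrpl11.

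Around the exit tunnel and the central protuberance, the values ran in both directions. Mrpl45, which anchors the ribosome to the inner membrane, stood at 64.7 and 66.5 FPKM in knockout libraries and 51.8, 62.4 and 64.7 FPKM in control libraries. Mrpl24, a tunnel-region protein with a bacterial homologue, stood at 67.4 and 66.0 FPKM in knockout libraries and 77.9, 106 and 90.8 FPKM in control libraries. Both knockout values lay below every control, with a log2 change of -0.44 (SE 0.14, interval -0.81 to -0.077, limma adjusted p = 0.115). The 5 tested members of the tunnel region had a median change of 0.21, and of 0.045 without control replicate 1. Mrpl24 shares exon bases with Rrnad1 on the opposite strand, and the use of strand in the counting is not given, so its level is uncertain. In the central protuberance, the crest that faces the small subunit, the 7 members had a median change of 0.17, and of 0.041 without control replicate 1. The largest was that of Mrpl46 with 62.9 and 63.0 FPKM in knockout libraries and 40.3, 50.4 and 55.8 FPKM in control libraries (log2 change 0.37, limma adjusted p = 0.175).

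Mrpl33, a small protein with a bacterial homologue, came nearest to the threshold. It stood at 131 and 127 FPKM in knockout libraries and 179.8, 179 and 159 FPKM in control libraries. Every control lay above both knockouts, and control replicate 1 was here the highest library. The means were 129 ± 3.21 FPKM (SD, n = 2) in knockouts and 173 ± 11.7 FPKM (SD, n = 3) in controls, with a log2 change of -0.41 (SE 0.089, limma adjusted p = 0.0526). Mrpl13, which has a bacterial homologue, stood at 116 and 112 FPKM in knockout libraries and 100.1, 147 and 146 FPKM in control libraries, so control replicate 1 lay below and the other controls above the knockouts. Mrpl51, a mitochondria-specific protein with the near-identical copy Gm14017, stood at 73.3 and 77.5 FPKM in knockout libraries and 54.6, 61.4 and 66.6 FPKM in control libraries (log2 change 0.31, limma adjusted p = 0.128). Mrpl3, whose human counterpart is mutated in inherited respiratory chain deficiency, stood at 73.8 and 74.0 FPKM in knockout libraries and 51.1, 66.5 and 71.4 FPKM in control libraries. Mrpl37, a mitochondria-specific protein, stood at 56.2 and 59.8 FPKM in knockout libraries and 40.4, 53.0 and 52.7 FPKM in control libraries. In both genes the knockouts lay above every control, with control replicate 1 lowest.

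Among small subunit genes, Mrps7, the homologue of a bacterial protein that starts assembly of the subunit head, had the largest positive log2 change of the 75 tested members. It stood at 112 and 110.2 FPKM in knockout libraries and 72.8, 87.9 and 91.6 FPKM in control libraries. The groups did not overlap, and the log2 change was 0.40 (SE 0.12, interval 0.10 to 0.71, limma adjusted p = 0.095). Mrps7 overlaps exons of Gga3 and Mif4gd, so its level is uncertain. Mrps34, a mitochondria-specific protein needed for small subunit stability in the mouse, stood at 87.6 and 92.9 FPKM in knockout libraries and 54.1, 79.4 and 78.6 FPKM in control libraries (log2 change 0.37, limma adjusted p = 0.265). Its exons overlap Mapk8ip3 on the opposite strand and Nme3 on the same strand.

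Genes for proteins along the mRNA path had overlapping groups. Mrps12, at the decoding site, stood at 84.6 and 88.0 FPKM in knockout libraries and 67.2, 87.4 and 83.9 FPKM in control libraries. Mrps5, at the mRNA entrance, stood at 33.9 and 34.1 FPKM in knockout libraries and 22.4, 32.3 and 34.5 FPKM in control libraries. Mrps24, also at the entrance, stood at 85.6 and 84.7 FPKM in knockout libraries and 58.4, 93.6 and 91.4 FPKM in control libraries. In each of these genes control replicate 1 was lowest and the groups overlapped. Mrps16 and Mrps22, mutated in human respiratory chain disease, had log2 changes of 0.004 and 0.17, with limma adjusted p values of 0.988 and 0.586. Mrps2, at 35.8 and 38.3 FPKM in knockout libraries and 31.4, 33.5 and 38.0 FPKM in control libraries, Mrps27, a pentatricopeptide repeat protein, at 32.9 and 32.3 FPKM in knockout libraries and 24.8, 33.9 and 32.9 FPKM in control libraries, and Mrps28, at 61.8 and 67.7 FPKM in knockout libraries and 49.2, 67.7 and 69.1 FPKM in control libraries, were also overlapping.

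The paralogues Mrps18a, Mrps18b and Mrps18c differed in level by more than they differed between groups. Mrps18c stood at 119.5 and 118 FPKM in knockout libraries and 101, 123 and 111 FPKM in control libraries. Mrps18a stood at 55.5 and 58.9 FPKM in knockout libraries and 43.8, 61.3 and 57.2 FPKM in control libraries, and Mrps18b at 38.5 and 42.2 FPKM in knockout libraries and 27.4, 34.2 and 39.1 FPKM in control libraries. Within each library the order of the 3 was the same. Structures of the mammalian ribosome place the products of Mrps18a and Mrps30 in the large subunit despite their names. Mrps30 stood at 52.3 and 56.2 FPKM in knockout libraries and 42.7, 54.9 and 59.8 FPKM in control libraries.

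**Figure D3:**
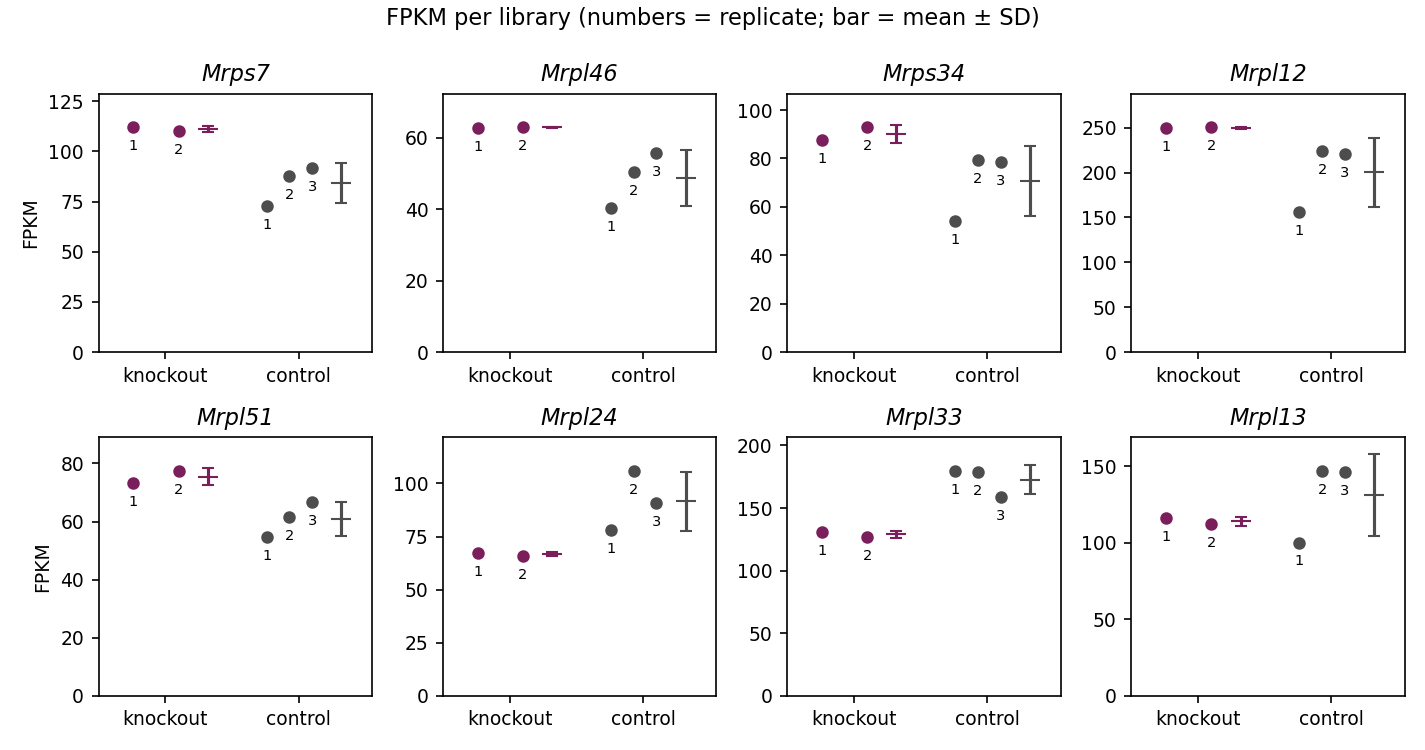
FPKM of selected members in each library, knockout libraries left of control libraries, with the mean ± SD of each group as a bar (n = 2 and n = 3). Mrpl33 and Mrpl24 lie lower in both knockouts than in every control, Mrps7, Mrpl46, Mrps34, Mrpl12 and Mrpl51 lie higher, and Mrpl13 overlaps.

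Without control replicate 1, 11 of 75 members passed (14.7%), 3 higher and 8 lower in knockouts, while 29.8% of all genes passed (11.9% higher and 18.0% lower). The genes in this and the next 3 sentences other than Mrpl24, Mrpl33, Mrpl13, Mrpl48 and Mrps7 were singled out after their values were seen. Mrpl24 then had a log2 change of -0.55 (limma adjusted p = 0.0231), Mrpl33 of -0.38 (0.032) and Mrpl13 of -0.36 (0.014). Mrpl52, Mrpl48, Mrpl2, which lies near the peptidyl transferase centre, Mrps10 and Mrpl42 followed with log2 changes of -0.36, -0.33, -0.32, -0.30 and -0.25. Mrps7 (0.30, limma adjusted p = 0.0205), Mrpl41 (0.24) and Mrpl17 (0.21) were the 3 higher ones. Of these 11 genes, Mrpl33 and Mrpl24 were also below, and Mrps7, Mrpl41 and Mrpl17 also above, every control when all 5 libraries were used.

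The other genes of mitochondrial translation were compared in the same way, from lists chosen by function. Of 36 genes for assembly factors, translation factors and other ribosome proteins, 0 passed in limma (5 higher and 2 lower at an unadjusted p under 0.05), with a median log2 change of -0.032. Without control replicate 1, 2 of them passed higher and 5 lower (19.4% in all), against 29.8% of all genes. The methyltransferase gene Tfb1m, whose product modifies the small subunit RNA, stood at 6.85 and 7.99 FPKM in knockout libraries and 10.1, 14.7 and 13.7 FPKM in control libraries (log2 change -0.70, limma adjusted p = 0.0696, and 0.0114 without control replicate 1). Gfm1, a translation elongation factor, stood at 61.3 and 68.0 FPKM in knockout libraries and 43.0, 46.2 and 54.9 FPKM in control libraries (limma adjusted p = 0.0959). Rnmtl1, which methylates the large subunit RNA, stood at 5.32 and 6.11 FPKM in knockout libraries and 3.88, 3.76 and 3.95 FPKM in control libraries (limma adjusted p = 0.0535). In the list, 7 of 36 genes, among them Gfm1 and Rnmtl1, lay above every control in both knockouts and 5, among them Tfb1m, lay below, against 22.9% and 29.4% of all genes.

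Of 19 mitochondrial tRNA synthetase genes 0 passed in limma (3 higher and 3 lower at an unadjusted p under 0.05), with a median log2 change of -0.12. Mars2, the methionine enzyme, stood at 7.78 and 7.56 FPKM in knockout libraries and 5.96, 5.42 and 5.11 FPKM in control libraries. Of 15 tested genes of mitochondrial DNA transcription and biogenesis, 1 passed higher and 0 lower in limma (1 and 2 at an unadjusted p under 0.05), 10 had a negative change and the median was -0.13. In 8 of them (53.3%) both knockouts lay below every control, against 29.4% of all genes, and 4 passed lower and 1 higher without control replicate 1. The gene that passed, Polg, the DNA polymerase of mitochondria, rose to 24.1 and 23.3 FPKM in knockout libraries, against 12.0, 16.1 and 13.5 FPKM in control libraries (log2 change 0.74, limma adjusted p = 0.037). The limma adjusted p of Polg was 0.0196 without control replicate 1, and 0.0608, 0.104, 0.272 and 0.264 without control replicates 2 and 3 and knockout replicates 1 and 2 in turn. Tfam, which packages mitochondrial DNA, stood at 42.4 and 43.3 FPKM in knockout libraries and 52.8, 54.6 and 51.6 FPKM in control libraries (limma adjusted p = 0.0566). Of 79 nuclear genes of the respiratory chain 0 passed in limma (1 higher and 6 lower at an unadjusted p under 0.05), with a median of -0.038, and 14 (17.7%) passed lower without control replicate 1, against 18.0% of all genes. Of 80 cytosolic ribosomal protein genes 1 was called, a row of Rpl41, a symbol that several rows share. That row stood at 18.5 and 37.1 FPKM in knockout libraries and was listed at 0 in every control, and its limma adjusted p was 0.0517 without knockout replicate 2. The list median was -0.072. Against the mean of control replicates 2 and 3, control replicate 1 lay at a median log2 difference of -0.39 for the members, -0.29 for the respiratory chain genes and -0.11 for the cytosolic ribosomal protein genes.

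**Figure D4:**
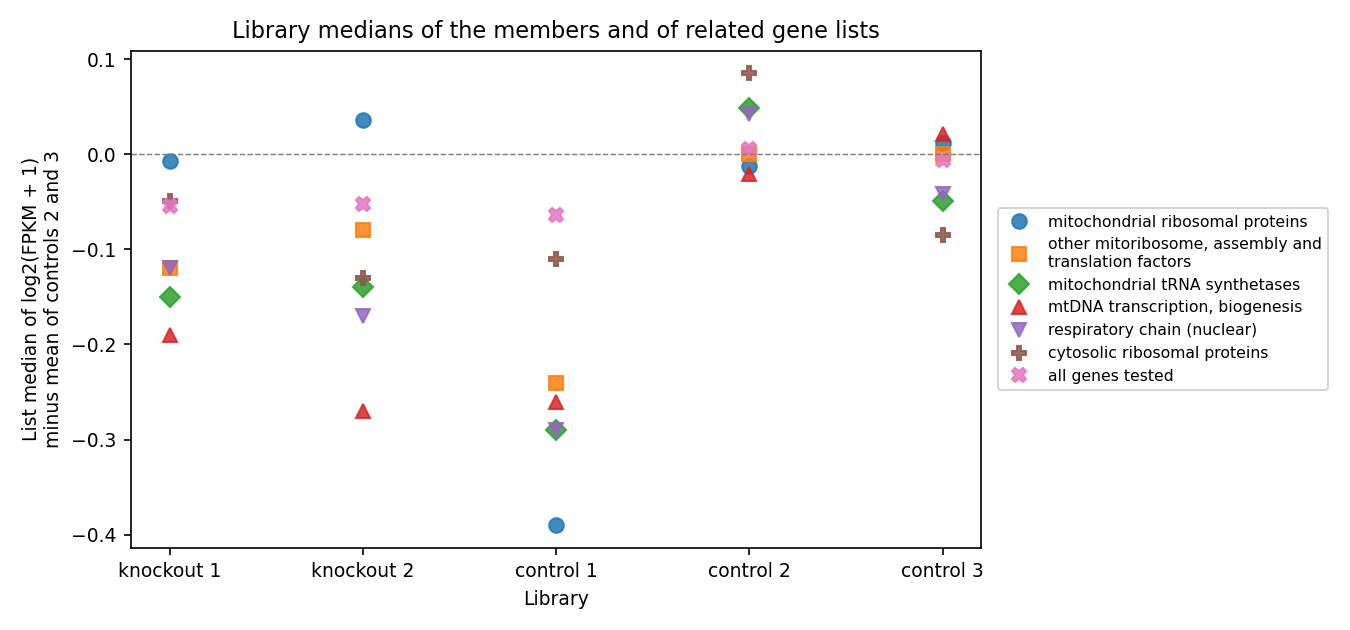
Median log2 difference from the mean of control replicates 2 and 3 for each library, for the mitochondrial ribosomal protein genes, the related gene lists and all genes tested. In control replicate 1 the members lie at -0.39 and all genes at -0.064.

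Many members share their start region with another gene. In the GENCODE annotation, 32 members have a protein-coding gene that starts on the opposite strand within 1000 bases, whether or not the genes overlap. The members Mrpl46 and Mrps11 are each other's partners and are counted among them. Of these partners 30 were tested, of which 1 passed, against 9.79% of all genes. It was Zfp661, beside Mrps5, which fell to 0.618 and 0.687 FPKM in knockout libraries, against 1.47, 1.77 and 1.57 FPKM in control libraries (limma adjusted p = 0.0461). For Zfp661 it was 0.0225 without control replicate 1, and between 0.108 and 0.32 without any other library. Ncapd2, the partner of Mrpl51, stood at 82.5 and 81.7 FPKM in knockout libraries and 95.6, 113 and 109 FPKM in control libraries, below every control, where Mrpl51 was above every control. Mrpl46 and Mrps11 start back to back, and the 41 bases between their RefSeq starts (GRCm38.p6, chr7:78783090-78783130, plus strand) are shown because this stretch lies before both RefSeq starts. In GENCODE the starts lie 412 bases apart and the exons overlap on opposite strands, so both levels are uncertain.
Mrps11 and Mrpl46: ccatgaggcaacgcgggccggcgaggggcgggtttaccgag
Mrps11 stood at 45.4 and 44.0 FPKM in knockout libraries and 37.5, 44.6 and 46.5 FPKM in control libraries, so its groups overlapped where those of Mrpl46 did not.

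RefSeq promoter windows of 250 bases before to 50 after the start were matched for 67 members, with 73 windows. The ETS core CCGGAAG, bound by the GABP factors, was in 32.9% of the member windows on either strand, in 8.86% of 32851 windows of all genes and in 18.2% of those of tested genes. The YY1 core AAGATGGC was in 16.4%, against 2.75% and 4.69%, and the NRF1 core GCATGCGC in 11.0%, against 2.71% and 5.62%. These letters are found by matching only and say nothing on binding. The median log2 change was 0.11 with and 0.12 without the ETS core, and 0.11 with and 0.13 without the YY1 core. For the NRF1 core it was 0.20 for 8 members with and 0.11 without. When control replicate 1 was left out, the medians with and without the core were 0.0044 and 0.027 for ETS. They were -0.03 and 0.026 for YY1, and 0.061 and 0.017 for NRF1. The 100 bases before the start (GRCm38.p6) are shown for Mrps7 (chr11:115604040-115604139, plus strand), Mrpl12 (chr11:120484537-120484636, plus strand), Mrpl24 (chr3:87919444-87919543, plus strand) and Mrpl33 (chr5:31613851-31613950, plus strand), 4 of the members whose groups did not overlap, and for Mrpl43 (chr19:45006443-45006542, minus strand) and Mrpl22 (chr11:58171564-58171663, plus strand) as members that carry the ETS core. Capitals mark an ETS or NRF1 core on either strand.
Mrps7: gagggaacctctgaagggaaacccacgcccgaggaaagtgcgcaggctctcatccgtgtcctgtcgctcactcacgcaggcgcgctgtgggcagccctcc
Mrpl12: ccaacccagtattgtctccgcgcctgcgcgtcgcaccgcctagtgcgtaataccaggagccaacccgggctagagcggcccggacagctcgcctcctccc
Mrpl24: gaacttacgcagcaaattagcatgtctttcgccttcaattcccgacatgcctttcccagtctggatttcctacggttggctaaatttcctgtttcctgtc
Mrpl33: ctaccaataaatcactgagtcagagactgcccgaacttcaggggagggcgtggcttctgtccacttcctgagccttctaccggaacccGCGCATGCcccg
Mrpl43: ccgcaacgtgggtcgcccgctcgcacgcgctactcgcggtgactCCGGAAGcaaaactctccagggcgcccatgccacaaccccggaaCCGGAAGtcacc
Mrpl22: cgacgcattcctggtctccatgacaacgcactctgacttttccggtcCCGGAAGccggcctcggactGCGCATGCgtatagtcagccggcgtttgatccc
Mrps7, Mrpl12 and Mrpl24 hold none of the 3 motifs in the stretch shown. In the full window, Mrps7 held the YY1 core and Mrpl33 the ETS core, both outside that stretch. Both genes are therefore counted above as carriers of these motifs. Mrpl43 stood at 95.1 and 98.8 FPKM in knockout libraries and 60.4, 93.7 and 93.2 FPKM in control libraries, and Mrpl22 at 34.3 and 35.9 FPKM in knockout libraries and 22.6, 31.2 and 38.9 FPKM in control libraries; both were singled out for their sequences.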

How the data were processed

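RNA was sequenced in 5 libraries, 2 knockout and 3 control. The deposited values are FPKM, 1 per Ensembl gene and library. Per the submitters' processing notes, the build was mm9 and the tools included Cuffdiff, GSNAP, CASAVA 1.8.2 and SAMtools. Sources used here do not give the annotation, the treatment of reads mapping to several places or the use of strand. In 16 genes a library held a failed estimate, and these were left out.

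From these values, log2(FPKM + 1) was tested with limma 3.58.1 in R 4.3.3 (intensity trend, Benjamini-Hochberg adjustment, threshold 0.05) over 11780 genes with at least 1 FPKM in 2 libraries. A log2 change is knockout minus control and understates that of low genes. Intervals are 95% intervals of the fit. The limma step was tested on simulated data. Overlaps, neighbours and copies (at least 250 bases at 95% identity) came from GENCODE M21 on GRCm38, in which 75 members were found, and promoters from RefSeq. Members were named by a rule: extremes of level and of change outside the control range, and a set list of structural and disease genes. Members, lists and rule were chosen with earlier results of these data known. Alternatives covered pseudocount, filter, scaling, trend, replicate block, each library left out, length and GC, threshold, subunit assignment and uncertain members. The replicate numbers were not shown to pair libraries.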

Additional observations from a re-analysis of the deposited data

How the results depend on the processing

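The main counts were 450 genes higher and 703 lower in knockout libraries, and 0 members. All genes counted 238 and 259 without a filter, 12 and 43 with the replicate block, 790 and 768 with the length and GC correction, 597 and 621 with median-ratio scaling, and 1021 and 1414 at an adjusted p under 0.1. With a library left out, the counts ran from 0 to 1398 higher and from 0 to 2118 lower; the highest came without control replicate 1 and the lowest without knockout replicate 2, where limma called 0 genes and 1669 had an unadjusted p under 0.05. Members called were 1 higher with median-ratio scaling (Mrpl41), 3 higher and 1 lower with the length and GC correction (Mrps7, Mrpl41, Mrpl18 and Mrpl33), 2 higher and 1 lower at an adjusted p under 0.1, 0 with the replicate block, and 0 to 3 higher and 0 to 8 lower with a library left out. No transcript length was available for Mrpl33, so its own values were not corrected and its log2 change stayed at -0.41. Its call under that setting reflects only the altered values of other genes. The large minus small difference ran from 0.019 to 0.057 with a library left out.

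Changes under the alternatives were followed gene by gene for a part of the members, and several of these changed sign. Of those that did, Mrpl48 and Mrpl52 were called without control replicate 1, and the others were called under no alternative. Over all 75 tested members, 59 changes were positive in the main fit and 40 without control replicate 1. Members outside that part changed sign too. Without control replicate 1, Mrpl21 went from 0.011 to -0.16 and Mrpl34 from 0.039 to -0.15. Under quantile normalization Mrpl44 had a log2 change of -0.00039, Mrpl48 of 0.0058, Mrps14 of -0.064 and Mrps16 of -0.063. With the replicate block Mrpl48 had 0.059, Mrpl52 0.0021 and Mrps16 -0.002, and with the length and GC correction Mrpl48 had 0.017. With a library left out, the log2 change ran from -0.19 to 0.0062 for Mrpl10, -0.091 to 0.24 for Mrpl35, -0.33 to 0.15 for Mrpl48, -0.36 to 0.021 for Mrpl52, -0.089 to 0.088 for Mrps14, -0.11 to 0.12 for Mrps16, -0.05 to 0.19 for Mrps18a, -0.12 to 0.22 for Mrps24, -0.035 to 0.18 for Mrps27, -0.08 to 0.16 for Mrps28, -0.077 to 0.16 for Mrps30 and -0.0022 to 0.15 for Mrps31. The cause was not tested. Deviations of same-numbered libraries correlated at 0.037 and 0.0123, so the block pairs numbers only. Depth is unknown, and 2 knockout libraries limit the precision.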
